A study of Mus musculus with 5 samples.

Results

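The miR-148 and miR-152 family is a set of 3 mouse miRNAs, miR-148a, miR-148b and miR-152, that share a seed, the stretch from base 2 to base 8 that pairs with target mRNAs. The members were chosen by name (mmu-miR-148a, mmu-miR-148b and mmu-miR-152 in the files), and all 3 were found among the 593 mouse miRNA names counted in at least 1 library. Small RNA was sequenced from testis of C57BL/6 mice in 5 libraries, of which 1 came from a germ cell culture kept for about 10 passages, 2 from the fresh Thy1+ fraction and 2 from the fresh Thy1- fraction. Magnetic beads with an antibody against Thy1.2 separated the fractions, and the Thy1+ fraction is enriched for spermatogonial stem cells, which renew themselves and start sperm production. The culture was derived from Thy1+ enriched cells. The titles call the Thy1- fraction enriched for somatic cells, although its cell type label repeats the stem cell name, and the titles were used here. The labels do not tie a replicate to an animal of its own, and the p-values reflect only the variation among these libraries, which may be technical.

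A miRNA guides a silencing complex to mRNAs that match its seed, and the mRNA is then degraded or translated less. In human cells miR-148 and miR-152 are known to target the mRNAs of the DNA methyltransferases DNMT1, which copies methylation after replication, and DNMT3B, which sets new methylation. DNA methylation is rebuilt during the development of male germ cells. miR-148a is also known as an abundant miRNA of liver and of lymphocytes.

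The 3 mature sequences are shown because they are nearly identical, which decides how a read is assigned to each. They are taken from RefSeq (GRCm38.p6), run 5′ to 3′, and have the seed in capitals.
miR-148a: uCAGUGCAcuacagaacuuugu
miR-148b: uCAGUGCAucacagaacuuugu
miR-152: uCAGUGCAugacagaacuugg
Counted from the 5′ end, miR-148b differs from miR-148a by C9U and U10C. miR-152 differs from miR-148b by C10G and U20G, and from miR-148a by C9U, U10G and U20G. miR-152 is annotated with 21 bases and the other two with 22. The minor strand of the miR-148a hairpin, named miR-148a* in the files, has an unrelated seed.
miR-148a*: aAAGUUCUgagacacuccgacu

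The hairpins are shown with the mature strand in capitals, since the base that follows it decides whether a longer read could have come from the genome.
miR-148a hairpin: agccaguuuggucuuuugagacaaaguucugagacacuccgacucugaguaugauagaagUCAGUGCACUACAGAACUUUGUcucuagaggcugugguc
miR-148b hairpin: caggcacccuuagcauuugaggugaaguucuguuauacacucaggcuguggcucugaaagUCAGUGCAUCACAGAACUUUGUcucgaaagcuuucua
miR-152 hairpin: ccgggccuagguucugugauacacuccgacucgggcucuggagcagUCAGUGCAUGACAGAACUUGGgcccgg
The 3 loci are on different chromosomes of GRCm38. The miR-148a hairpin (chr6:51269812-51269910, minus strand) overlapped no other gene in GENCODE M21 once miRNA and TEC entries were set aside, and its nearest protein-coding gene was Nfe2l3, 162760 bases away. The miR-148b hairpin (chr15:103285125-103285221, plus strand) lies in an intron of Copz1 on the same strand. The miR-152 hairpin (chr11:96850393-96850465, plus strand) lies in an intron of Copz2, also on the same strand. Copz1 and Copz2 are paralogs that encode a subunit of the COPI vesicle coat.

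The culture library held 5110007 miRNA reads, the Thy1+ libraries 937002 and 947687, and the Thy1- libraries 2548234 and 4909753. Levels are counts per 1000000 miRNA reads of a library (CPM), so they are shares of miRNA and not amounts per cell, and fewer cells of a type cannot be told apart from less RNA per cell. Fold changes were fitted with edgeR after TMM scaling, which sets changes relative to the bulk of miRNAs. The median log2 fold change of all tested miRNAs was -0.07 for Thy1+ against Thy1-, -0.09 for culture against Thy1+ and -0.15 for culture against Thy1-, and under scaling to total counts it was 0.51, -1.73 and -1.19. For Thy1+ against Thy1- 87 miRNAs were called higher and 33 lower (110 and 11 under total counts), for culture against Thy1+ 42 and 63 (9 and 164), and for culture against Thy1- 85 and 79 (34 and 121).

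miR-148a was the most abundant member in every fresh library. It stood at 3386 CPM in the culture (95% Clopper-Pearson interval 3336 to 3437, counting error only), at 13153 and 17477 CPM in the Thy1+ libraries, and at 24284 and 29614 CPM in the Thy1- libraries. The 3 groups did not overlap, with the culture lowest and Thy1- highest. By rank among the miRNAs of a library, miR-148a was number 43 in the culture, 21 and 20 in Thy1+, and 11 and 7 in Thy1-.

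miR-152 had 5152 CPM in the culture (interval 5090 to 5214), 2322 and 3575 CPM in Thy1+ cells, and 4489 and 5554 in Thy1- cells. The culture value thus lay above both Thy1+ libraries and between the Thy1- libraries. miR-148b had 1714 CPM in the culture (interval 1679 to 1751), 1741 and 1677 CPM in Thy1+ cells, and 2792 and 2614 in Thy1- cells. Its culture and Thy1+ values were close together and below both Thy1- values. As the tags described further on show, part of the counts placed on miR-148b are a longer form of miR-152.

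**Figure D1:**
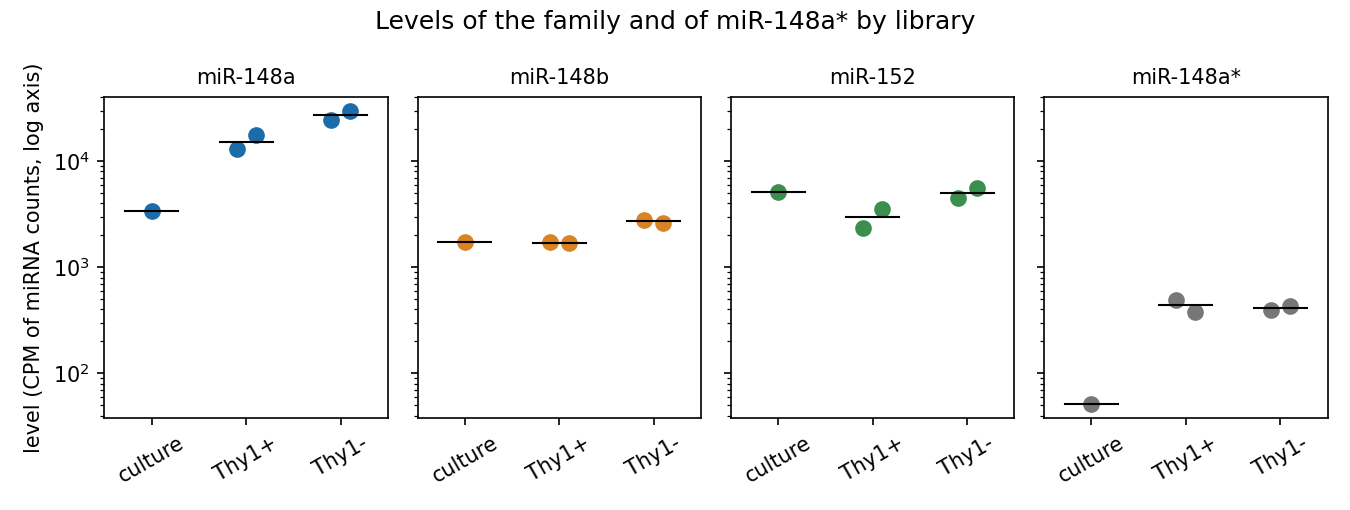
Levels of miR-148a, miR-148b, miR-152 and miR-148a* in CPM on a log axis, with 1 point per library and a line at the group mean, for the culture (1 library), Thy1+ (2) and Thy1- (2). miR-148a and miR-148a* are lowest in the culture, at 3386 and 51.7 CPM, while miR-152 in the culture, at 5152 CPM, is above both Thy1+ libraries.

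Together the 3 members made up 1.03% of the culture counts, 1.72% and 2.27% of the Thy1+ counts, and 3.16% and 3.78% of the Thy1- counts. The make-up of the family varied little among the fresh libraries. miR-148a held 76.4% and 76.9% of the family counts in Thy1+, and 76.9% and 78.4% in Thy1-. In the culture it held 33.0% (interval 32.6% to 33.4%).

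miR-152 held 50.3% of the family counts in the culture (interval 49.8% to 50.7%), 13.5% and 15.7% in Thy1+, and 14.2% and 14.7% in Thy1-. miR-148b held 16.7% in the culture (interval 16.4% to 17.0%), 10.1% and 7.38% in Thy1+, and 8.85% and 6.92% in Thy1-. All 3 culture shares lay outside the range of the 4 fresh libraries. The 3 shares are parts of 1 whole, so they are not separate results. The culture also lay outside the fresh range in most of the 34 measures of shares, ratios and tags. Many of these measures restate the same counts, and a single library is often the lowest or highest of 5, so this is not separate support. Shares and ratios within a library do not depend on the scaling between libraries. With a single culture library they were not tested against the fresh groups.

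The ratio of miR-148a to miR-152 counts was 0.657 in the culture, 5.66 and 4.89 in Thy1+, and 5.41 and 5.33 in Thy1-. The dominant member of the family was therefore miR-152 in the culture library and miR-148a in each fresh library. Between the fresh fractions the share of miR-148a averaged 76.6% ± 0.351 in Thy1+ and 77.7% ± 1.03 in Thy1- (SD, n = 2 each), a difference of -1.01 percentage points. Its two-sided exact permutation p was 0.33, the smallest that 2 against 2 libraries allow. The shares of miR-148b (exact p = 0.667) and miR-152 (exact p = 1) overlapped between the fractions. In all, 34 measures of shares, ratios and tags were tested in this way, and the p-values adjusted over them were 0.944 or 1.

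**Figure D2:**
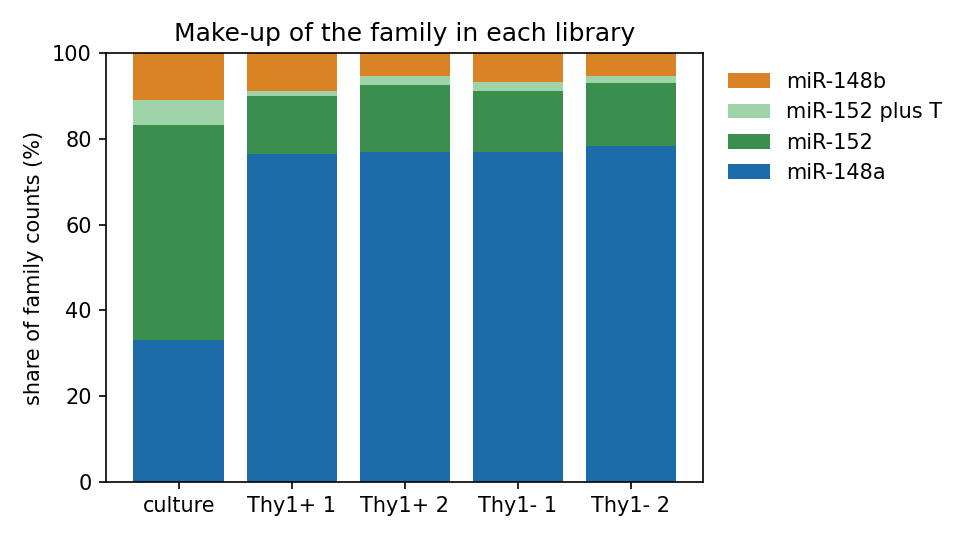
Share of each member in the family counts, in percent, stacked to 100% for the culture, the Thy1+ libraries and the Thy1- libraries, with the tag of miR-152 plus T shown on its own. miR-148a takes 33.0% in the culture and between 76.4% and 78.4% in the fresh libraries.

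The first comparison asked whether the family differs between the stem cell enriched Thy1+ fraction and the Thy1- fraction. All 3 members had lower CPM in both Thy1+ libraries than in both Thy1- libraries. How many of all miRNAs had that order was not counted, so it cannot be said whether it is unusual. None of the 3 passed the test, against a background of 28.2% of the 425 miRNAs tested that were called and 7.76% called lower. miR-148a averaged 15315 ± 3057 CPM in Thy1+ and 26949 ± 3769 CPM in Thy1- (SD, n = 2 each), a log2 fold change of -1.41 (SE 0.48, edgeR adjusted p = 0.0591). For miR-152 the means were 2948 ± 886 CPM in Thy1+ and 5021 ± 753 CPM in Thy1- (SD, n = 2 each; log2 -1.37, SE 0.47, edgeR adjusted p = 0.0595).

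miR-148b averaged 1709 ± 45.1 CPM in Thy1+ and 2703 ± 126 CPM in Thy1- (SD, n = 2 each), with a log2 fold change of -1.21 (SE 0.44, edgeR adjusted p = 0.0730). The 3 fold changes thus lay within 1 SE of each other. They sat near the threshold. miR-148a passed with DESeq2 (adjusted p = 0.0295), with RLE scaling (0.0497), without a filter on low counts (0.0318), in a fit of all 5 libraries (0.0491) and without Thy1- replicate 1 (0.0188), and over all 15 settings its adjusted p ran from 0.0188 to 0.381. miR-152 passed with DESeq2 (adjusted p = 0.0353), without the filter (0.0444) and without Thy1- replicate 1 (0.0329), within a range from 0.0329 to 0.312. miR-148b passed in none of 15 settings.

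The next comparison set the culture against the fresh Thy1+ fraction from which such cultures start. The culture is a single library, so its own spread was not observed and the fit takes the spread from the fresh groups, here and against Thy1-. By that fit miR-152 was called higher in the culture library, and miR-148b and miR-148a did not pass. miR-152 stood at 5152 CPM in the culture and at a mean of 2948 ± 886 CPM in Thy1+ (SD, n = 2), which is a log2 fold change of 2.48 (SE 0.57, edgeR adjusted p = 0.0211). It was 1 of 3 members called, where 22.3% of 470 miRNAs were called, 8.94% higher and 13.4% lower. The call ended under total counts (log2 0.80, edgeR adjusted p = 0.260). It also ended without Thy1+ replicate 1 (adjusted p = 0.141) or Thy1+ replicate 2 (0.168).

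miR-148b had a log2 fold change of 1.65 in the culture against Thy1+ (SE 0.55, edgeR adjusted p = 0.0599), with nearly equal CPM in both. It passed without Thy1- replicate 2 (adjusted p = 0.0398), and with the longer form of miR-152 set aside from it the value was 1.37 (adjusted p = 0.115). miR-148a stood at 3386 CPM in the culture and at a mean of 15315 ± 3057 CPM in Thy1+ (SD, n = 2), and its log2 fold change was -0.51 after TMM scaling (SE 0.58, edgeR adjusted p = 0.574). Under total counts the value was -2.18 and passed (adjusted p = 0.0193), while miR-148b was then at 0.00. The call for miR-148a and for miR-152 in this comparison thus depended on the scaling, and the change in the ratio between them did not.

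Against the fresh Thy1- fraction miR-148a was called lower in the culture library by the same fit, with 3386 CPM in the culture and 26949 ± 3769 CPM in Thy1- (SD, n = 2). The log2 fold change was -1.97 (SE 0.63, edgeR adjusted p = 0.040), and -2.99 under total counts (adjusted p = 0.00973). Of the 3 members it was the only one called, where 34.9% of 470 miRNAs were called, 18.1% higher and 16.8% lower. The call was lost without Thy1+ replicate 1 (adjusted p = 0.145), Thy1+ replicate 2 (0.135) or Thy1- replicate 2 (0.0640), with tied tags left out (0.0505) and with the replicate number as a block (0.0739). miR-152 (log2 1.06, adjusted p = 0.180) and miR-148b (log2 0.39, adjusted p = 0.620) did not pass, and under total counts miR-148b was at -0.66 and miR-152 at 0.04. Both comparisons of the culture rest on the same library.

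**Figure D3:**
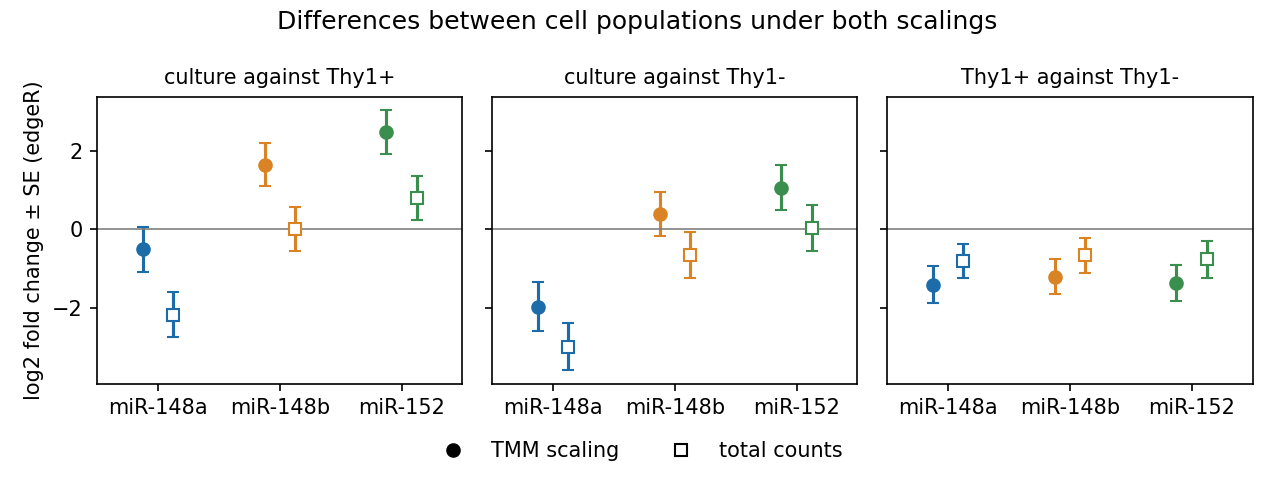
Log2 fold changes with their SE from edgeR for the 3 members in the 3 comparisons, with filled circles for TMM scaling and open squares for scaling to total counts. In both culture comparisons miR-148a lies below miR-152 under either scaling, at -0.51 and 2.48 against Thy1+ with TMM, while the members lie close together in Thy1+ against Thy1-.

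The minor strand of the miR-148a hairpin is counted from its own tags, but its level shares the library total and the scaling with the mature strand. miR-148a* stood at 51.7 CPM in the culture, 491 and 382 CPM in Thy1+ cells, and 399 and 428 in Thy1- cells. The culture value was below all 4 fresh values, and the fresh fractions overlapped (log2 -0.47, edgeR adjusted p = 0.533, and 0.08 under total counts). The log2 fold change was -1.44 against Thy1+ (SE 0.71, edgeR adjusted p = 0.164) and -1.96 against Thy1- (SE 0.73, adjusted p = 0.0650), and under total counts these were -3.08 (adjusted p = 0.0167) and -3.0 (adjusted p = 0.0204). Per count of miR-148a* there were 65.5 counts of miR-148a in the culture, 26.8 and 45.8 in Thy1+, and 60.8 and 69.3 in Thy1-. The culture ratio lay within the range of the Thy1- libraries and above both Thy1+ libraries. In CPM both strands were lowest in the culture. After TMM scaling neither strand was called in the culture against Thy1+, and only miR-148a was called against Thy1-. The minor strands of miR-148b and miR-152 were not analysed here.

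A distinct tag linked miR-148b and miR-152. It is the miR-152 sequence with 1 more base at the 3′ end, shown here in capitals as a DNA read.
miR-152 plus T tag: tcagtgcatgacagaacttggT
In the hairpin the base after mature miR-152 is G, so this T is not templated there. No tag in the files ran past the end of the mature miRNA it was placed on, and this tag was placed on miR-148b, which has the same length, with 2 mismatches, C10G and U20G. It had 2979 reads in the culture, 209 and 448 in Thy1+, and 1714 and 2836 in Thy1-.

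This tag made up 34.0% of the counts placed on miR-148b in the culture, 12.8% and 28.2% in Thy1+, and 24.1% and 22.1% in Thy1-. Set against miR-152 instead, it was 10.2% of miR-152 with that tag included in the culture, 8.76% and 11.7% in Thy1+, and 13.0% and 9.42% in Thy1-. Its share of miR-152 in the culture lay within the fresh range, whereas its share of miR-148b was highest in the culture. Counted as miR-152, it left miR-148b at 1132 CPM in the culture, 1518 and 1205 CPM in Thy1+ cells, and 2120 and 2036 in Thy1- cells. miR-152 then stood at 5735 CPM in the culture, 2545 and 4048 CPM in Thy1+ cells, and 5162 and 6131 in Thy1- cells.

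With that tag moved, miR-152 held 55.9% of the family in the culture, and miR-148b held 11.0%. miR-148b then had lower CPM in the culture than in both Thy1+ libraries. The calls of the 3 members were the same either way, and the log2 fold changes of miR-148b became -1.15 for Thy1+ against Thy1-, 1.37 for culture against Thy1+ and 0.17 for culture against Thy1-. This way of counting was chosen after the tags were seen. Other bases added to miR-152, and any base added to miR-148a or miR-148b, would run past the annotated end and were not analysed here.

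**Figure D4:**
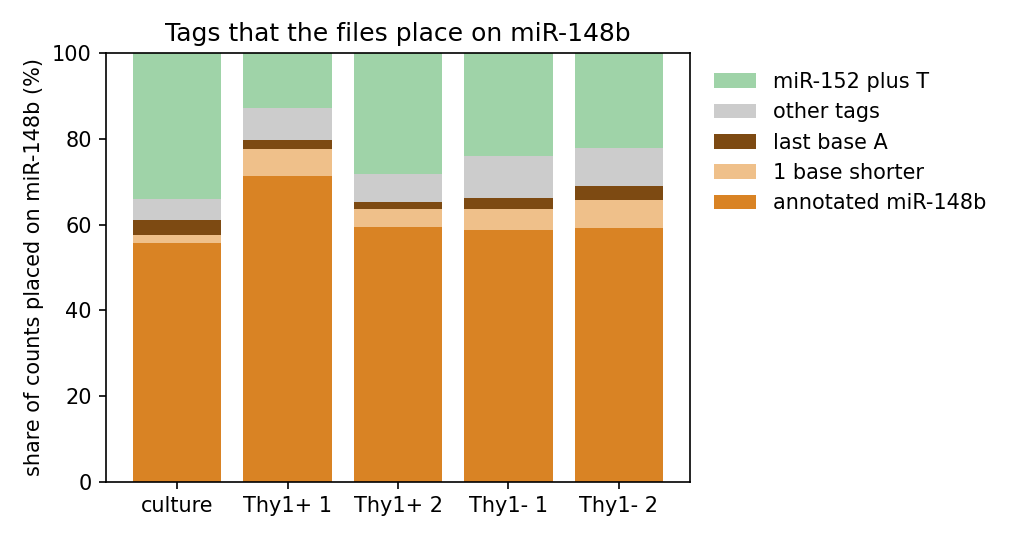
Tags that the files place on miR-148b, as percent of its counts in each library: the annotated sequence, the form 1 base shorter, the form of full length whose last base is A, all other tags, and miR-152 plus T. With miR-152 plus T in the total, the annotated miR-148b sequence takes 55.7% in the culture and between 58.8% and 71.2% in the fresh libraries. With that tag set aside it has 4877 of 5782 counts in the culture. It then has 1162 of 1422 and 943 of 1142 in Thy1+, and 4185 of 5401 and 7596 of 9997 in Thy1-. The order of the libraries thus depends on that tag.

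The forms of miR-148a itself were more uniform than the tags placed on miR-148b, which include the miR-152 plus T tag. The annotated sequence was 92.6% of its counts in the culture, 90.7% and 89.9% in Thy1+, and 86.9% and 89.8% in Thy1-. For miR-152 it was 93.5% in the culture, 92.0% and 91.9% in Thy1+, and 89.1% and 92.4% in Thy1-. These miR-152 shares leave out the miR-152 plus T tag, which the files place on miR-148b. That tag was 8.76% to 13.0% of miR-152 with the tag included, so the annotated share would be lower with it. Thy1- replicate 1 was lowest for both miR-148a and miR-152. Unread bases (N), which the files do not count as mismatches, were in 3.04% of its miR-148a counts against 1.10% to 1.17% in the other libraries.

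A few variants recurred in every library. The miR-148a form that lacks 1 base at the 3′ end was 1.05% in the culture, 1.76% and 1.55% in Thy1+, and 2.13% and 1.59% in Thy1-. A form of full length that ends in A where the mature strand ends in U is shown because the hairpin has no A at that place, with the A in capitals.
miR-148a minus 1 plus A tag: tcagtgcactacagaactttgA
It was 0.329% of miR-148a in the culture, 0.617% and 0.586% in Thy1+, and 0.814% and 0.807% in Thy1-, so the groups did not overlap and the culture was lowest (Thy1+ against Thy1-, exact permutation p = 0.33). The same form of miR-148b was 3.38% in the culture, 2.08% and 1.57% in Thy1+, and 2.53% and 3.19% in Thy1-, and there the culture was highest. For miR-152 the order of the fractions was the reverse, with both Thy1+ libraries above both Thy1- libraries (exact permutation p = 0.33). Its form averaged 0.815% in Thy1+ and 0.464% in Thy1-, and the culture, at 0.748%, lay within the fresh range. The form thus had no common direction over the members.

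A form of miR-148a that starts at base 3 has a shifted seed and is shown for that reason, with the new seed in capitals.
miR-148a from base 3 tag: aGTGCACTacagaactttgt
Tags without a mismatch that start there were 0.329% of miR-148a in the culture, 0.479% and 0.525% in Thy1+, and 0.364% and 0.394% in Thy1-. Both Thy1+ libraries were above both Thy1- libraries (exact permutation p = 0.33), and the same held for miR-152. For miR-148b the shares were 0.368% and 0.503% in Thy1+, and 0.323% and 0.366% in Thy1-, so the fractions nearly met. In Thy1+ the totals were 2176 and 3388 counts for miR-152 and 1632 and 1590 for miR-148b. The shares of these members there thus rest on few reads. The counts of miR-148b used there include the miR-152 plus T tag. Since no tag starts before the annotated first base, forms with a longer 5′ end were not analysed here.

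Other miRNAs carry part of the seed. In a search of 1679 mature names in RefSeq, hits on 1 chromosome were left out, so the counts that follow may be incomplete. Of the hits kept, 3 had the full seed, namely the members. The other 11 held its first or last 6 bases within their own bases 1 to 8. Of those 11, 4 were matched to a name in the files, namely miR-130a, miR-130b, miR-301a and miR-291b-3p. miR-301b was counted too but was not a hit of this search, and it did not pass in Thy1+ against Thy1- (log2 0.64, edgeR adjusted p = 0.416). miR-130a had 865 CPM in the culture, 1156 and 2827 CPM in Thy1+ cells, and 5076 and 3524 in Thy1- cells, and it fell in Thy1+ against Thy1- (log2 -1.70, edgeR adjusted p = 0.0453). miR-291b-3p, of an embryonic stem cell cluster, had 4.11 CPM in the culture, 81.1 and 142 CPM in Thy1+ cells, and 4.32 and 4.48 in Thy1- cells. It rose in Thy1+ against Thy1- (log2 4.05, edgeR adjusted p = 0.0115) and was called lower in the culture against Thy1+ (log2 -3.07, adjusted p = 0.0224). miR-130b and miR-301a passed in none of the 3 comparisons.

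The profile of each member over the 5 libraries was set against 233 miRNAs with a mean of at least 100 CPM. Likeness was the root mean square difference of log2(CPM + 1) after centring each miRNA on its mean. Closest to miR-148a were miR-106b* (0.196), miR-181c (0.202) and miR-15a (0.288). miR-106b*, for example, had 97.1 CPM in the culture, 382 and 483 CPM in Thy1+ cells, and 699 and 605 in Thy1- cells. Closest to miR-148b were miR-151-5p (0.111), miR-186 (0.152) and miR-140 (0.191). Closest to miR-152 were miR-199a-5p (0.184), let-7a (0.248) and let-7d (0.268). The members were further apart from each other than from these closest profiles. The distance was 0.922 for miR-148a with miR-148b, 1.21 for miR-148a with miR-152 and 0.399 for miR-148b with miR-152. Among the 233 miRNAs, in order of closeness to miR-148a, miR-148b was number 90 and miR-152 number 122. In the order for miR-148b, miR-152 was number 18. miR-148b and miR-152 were thus closer to each other than either was to miR-148a.

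Other miRNAs linked to DNA methyltransferases did not share one direction over the 3 comparisons. The list held 14 products, namely the miR-29 family, which targets DNMT3A and DNMT3B in human cells, miR-143, miR-185, miR-342-3p and miR-126-3p, for which single DNA methyltransferases are known as human targets, and the 3′ products of miR-290 to miR-295, which in mouse embryonic stem cells act on methyltransferase levels through Rbl2. It shares miR-291b-3p with the group of partial seeds. miR-290-3p was too low to be tested. Of 13 tested in Thy1+ against Thy1-, 7 rose (miR-29a, miR-29b, miR-291a-3p, miR-291b-3p, miR-293, miR-294 and miR-295) and 0 fell. All 7 belong to the miR-29 family or to the cluster of miR-290 to miR-295, so they are not 7 separate results. Over all 425 miRNAs 20.5% were called higher and 7.76% lower, and the median log2 fold change of the list was 2.05 beside -0.07 over all. In the culture against Thy1+, 2 were called higher and 3 lower (0 and 5 under total counts), where 8.94% of all 470 were called higher and 13.4% lower, with a median of -0.78 beside -0.09. In the culture against Thy1-, 3 were called higher and 0 lower (2 and 1 under total counts), with a median of 1.21 beside -0.15. The count called higher there is near the share over all miRNAs, of which 18.1% were called higher and 16.8% lower.

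miR-29a was called higher in all 3 comparisons. It had 7029 CPM in the culture, 5524 and 4001 CPM in Thy1+ cells, and 622 and 385 in Thy1- cells, with log2 fold changes of 2.74 for Thy1+ against Thy1- (edgeR adjusted p = 0.0145), 2.19 for culture against Thy1+ (adjusted p = 0.0304; 0.56 and 0.439 under total counts) and 4.88 for culture against Thy1- (adjusted p = 0.00219). Its order of groups was the reverse of that of miR-148a. miR-143, also a mesenchymal miRNA, had 37950 CPM in the culture, 17369 and 18967 CPM in Thy1+ cells, and 29956 and 11618 in Thy1- cells. It was called higher in the culture against Thy1+ (log2 2.72, edgeR adjusted p = 0.0185; 1.06 and 0.185 under total counts).

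Marker lists of other cell types also differed between the groups, some in the order of miR-148a and some not. The gonadal miR-202 pair summed to 173 CPM in the culture, 1138 and 2205 CPM in Thy1+ cells, and 18584 and 3712 in Thy1- cells, and both products were lower in Thy1+ against Thy1- (1 of 2 under total counts) and in the culture against Thy1- by the test. The 3 red blood cell miRNAs summed to 12.5 CPM in the culture, 252 and 179 CPM in Thy1+ cells, and 1344 and 1475 in Thy1- cells, and all 3 were called lower in the same comparisons. Both sums had the group order of miR-148a, and not that of miR-152, which was higher in the culture than in Thy1+. The 5 mesenchymal miRNAs summed to 52882 CPM in the culture, 23006 and 29905 CPM in Thy1+ cells, and 39633 and 22762 in Thy1- cells. Of these, 4 of 5 were called higher in the culture against Thy1+, as miR-152 was (0 of 5 under total counts). Against Thy1- 2 of 5 were called higher in the culture (0 of 5 under total counts), where miR-152 was not called. Of the mesenchymal sum in the culture, 37950 CPM were miR-143 and 12096 CPM miR-199a-3p. The 4 called against Thy1+ include both arms of miR-199a, so they are not 4 separate results. miR-145, which was not called, had 234 CPM in the culture, 313 and 310 CPM in Thy1+ cells, and 830 and 323 in Thy1- cells. Over all miRNAs 7.76% were called lower in Thy1+ against Thy1-. In the culture 8.94% were called higher against Thy1+, and 18.1% higher and 16.8% lower against Thy1-.

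The 5 white blood cell miRNAs summed to 937 CPM in the culture, 14904 and 26540 CPM in Thy1+ cells, and 2017 and 1346 in Thy1- cells. All 5 rose in Thy1+ against Thy1-, where the members had lower CPM and 20.5% of all miRNAs were called higher. In the culture against Thy1+, 3 of 5 were called lower, where 13.4% of all miRNAs were. Within that list miR-155 was called higher in the culture against Thy1- (log2 4.55, edgeR adjusted p = 0.00219), with 92.8 CPM in the culture and 9.81 and 6.72 CPM in Thy1-. The pair from miR-126, of endothelium, summed to 562 CPM in the culture, 1918 and 2605 CPM in Thy1+ cells, and 964 and 1678 in Thy1- cells, and the 3 of meiotic and later germ cells to 196223 CPM in the culture, 106818 and 23725 CPM in Thy1+ cells, and 49494 and 8581 in Thy1- cells. Of the germ cell sum in the culture, 195532 CPM were miR-34c, while miR-449a had 39.3 CPM in the culture, 699 and 151.9 CPM in Thy1+ cells, and 325 and 10.4 in Thy1- cells. The germ cell sum also differed widely between the libraries of each fresh fraction. None of these markers was at 0 in any library. The part of other cell types in the levels of the family was not tested.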

How the data were processed

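Small RNA libraries from mouse testis cells were sequenced by the submitters with Illumina small RNA protocols, per the labels' protocols. The deposited files hold raw read counts for each distinct sequence tag of 15 to 25 bases, with the mature miRNA of miRBase 12.0 it was placed on (per the file names), its position and up to 2 mismatches. DESeq is named in the submitters' processing notes, with neither version nor role. How adapters were removed and tags aligned is not given in the sources used here. The totals are reads placed on miRNAs, since the files list no others.

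Each tag was counted for its placement with the fewest mismatches, ties were split equally, and sums were rounded. Ties made up 0.0492% to 2.21% of the counts of a member. edgeR 4.0.16 in R 4.3.3 (TMM, filterByExpr, quasi-likelihood test, two-sided, Benjamini-Hochberg over all miRNAs tested, threshold 0.05) gave every adjusted p unless DESeq2 1.42.0 or limma 3.58.1 is named. The fit for Thy1+ against Thy1- used the 4 fresh libraries, and that for the culture all 5. Scripts were tested on simulated counts. Exact permutation tests used scipy 1.17.1. Intervals are 95% Clopper-Pearson and cover counting error only, since reads carry no molecular identifiers. Sequences come from RefSeq, where all 3 members matched, and from the deposited tags.

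Named miRNAs were the members, miR-148a*, the 3 closest profiles per member, miRNAs sharing the seed or 6 of its bases, and the list linked to DNA methyltransferases. The members and lists were chosen with earlier results of these data known. Replicate numbers come from the titles, and the labels give no pairing.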

Additional observations from a re-analysis of the deposited data

How the results depend on the processing

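No direction of a member turned under any alternative except that of miR-148b in the culture against Thy1-, which was -0.66 under scaling to total counts, and the small differences in family share given at the end. The sign of miR-148a* in Thy1+ against Thy1- also turned under that scaling. For Thy1+ against Thy1-, miR-148a passed with log2 -1.42 under RLE scaling, -1.42 with DESeq2, -1.49 without a filter and -1.46 in the fit of all 5 libraries, and miR-152 with -1.39 (DESeq2) and -1.45 (no filter). For the culture against Thy1+, miR-148a passed at -2.18 under total counts, miR-152 did not at 0.80, and miR-148b passed at 1.71 with DESeq2 and 1.75 without a filter. For the culture against Thy1-, miR-148a missed the threshold at -1.84 with tied tags left out. The cause was not tested, beyond the median shift of all miRNAs that total counts bring.

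Leaving out 1 fresh library at a time gave log2 values of -1.50 to -1.09 (miR-148a), -1.41 to -1.01 (miR-148b) and -1.51 to -1.03 (miR-152) for Thy1+ against Thy1-. For the culture against Thy1+ they were -0.80 to -0.51, 1.18 to 1.79 and 2.19 to 2.48, and for the culture against Thy1- -2.42 to -1.64, 0.10 to 0.49 and 0.60 to 1.40, in the same order. The lone library left in a group is then assumed to vary like the others. The number of miRNAs called ran from 0 to 138, from 0 to 128 and from 46 to 135 in these 3 comparisons. The count was 0 without either Thy1+ library in the comparisons of Thy1+ with Thy1- and of the culture with Thy1+. In the culture against Thy1+ it was 173 under total counts and 68 without Thy1- replicate 1, and in the culture against Thy1- it was 46 without Thy1+ replicate 2 and 94 without Thy1- replicate 1.

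With replicate number as a block, 32 miRNAs were called in Thy1+ against Thy1- in place of 120, miR-148a was at -1.38, -0.33 and -1.76 in the 3 comparisons, and only the call in the culture against Thy1- was lost among the members. Deviations of same-numbered libraries from their group means had a correlation of -0.06 across 425 miRNAs. With 2 libraries per fraction this single value cannot decide whether same-numbered libraries were paired.

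The difference in family share, Thy1+ minus Thy1-, ran from -1.74 to -0.29 percentage points for miR-148a, -0.50 to 2.23 for miR-148b and -0.97 to 1.27 for miR-152 when 1 library was left out. With tags without a mismatch only, the culture shares were 35.3% for miR-148a, 11.0% for miR-148b and 53.7% for miR-152, and with miR-152 plus T counted as miR-152 they were 11.0% for miR-148b and 55.9% for miR-152. At the depth of the Thy1+ libraries miR-148a* rests on 460 and 362 counts, and in the culture on 264. Each comparison of the culture rests on 1 library of it.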
